A study of Homo sapiens with 14 samples.

Results

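The 43 genes described here are interferon-stimulated genes outside the OAS family, taken by symbol from a list of genes known to be switched on by type I interferon. All 43 were found once in each of the 6 deposited count tables, which list 55075 genes, 40694 of them with a count in any column. RNA was sequenced from CUTLL1 and CEM, 2 established human T cell acute lymphoblastic leukemia lines grown in suspension. Cells carried a retrovirus with a short hairpin against the histone demethylase JMJD3 (gene KDM6B, shJMJD3), against its relative UTX (gene KDM6A, shUTX) or against Renilla luciferase as the control (shRenilla). CUTLL1 had 3 shJMJD3, 2 shUTX and 3 shRenilla samples, and CEM had 2 samples of each. The control cells had thus also been infected with a retrovirus, and uninfected cells were not analysed here. Hairpin sequences and the time from infection to harvest were not given with the labels.

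The deposited values were 1 raw read count per gene, hairpin and line, so the spread between samples of a group could not be measured. Column totals ran between 70280185 and 258014046 counts. The CUTLL1 shRenilla column was deposited in a larger form beside shJMJD3 (258014046 counts) and a smaller form beside shUTX (144394369 counts). The larger was at or above the smaller for every gene, and their difference is called the remainder. Levels are CPM, counts scaled to the column total. Ratios are log2 values scaled by TMM, which allows for unequal composition of the columns, so they can differ from the quotient of the CPM levels. Ranges in brackets are exact binomial 95% intervals of the ratio, for counting error alone. Small non-coding RNA made up 19.6% of CUTLL1 shJMJD3 and 9.78% of CUTLL1 shUTX counts, against 15.5%, 7.65% and 25.5% in the larger, smaller and remainder control counts, and at most 0.165% in CEM. T cell markers summed to between 2583 and 3639 CPM in the columns. Of the markers of other cells, 1 of 6 for B cells (MS4A1), 3 of 6 for myeloid cells (LYZ, CD33 and MPO) and 2 of 4 for plasmacytoid dendritic cells (CLEC4C and LILRA4) were under 0.1 CPM throughout. The B cell list summed to between 1.496 and 83.3 CPM, highest in CEM shRenilla cells, where CD79A alone stood at 74.7 CPM. The myeloid list summed to between 0.355 and 6.47 CPM, and its ITGAM stood at 6.33 CPM in CEM shJMJD3 cells against 0.125 CPM in CEM shRenilla cells, a log2 ratio of 5.68. The plasmacytoid dendritic list summed to between 6.24 and 15.4 CPM. The NK cell list summed to between 15.15 and 34.0 CPM and the erythroid list to between 0.0982 and 0.547 CPM. The fibroblast list summed to between 0.508 and 9.70 CPM. Its DCN stood at 9.47 CPM in CUTLL1 shJMJD3 cells against 3.44 CPM in the larger shRenilla column, a log2 ratio of 1.60. Of these lists 1 of 5 NK, 2 of 4 erythroid and 3 of 5 fibroblast markers were under 0.1 CPM throughout. The part of such markers in the ratios of the members was not tested. KDM6B stood at 10.9 CPM in CUTLL1 shJMJD3 cells against 18.8 CPM in the larger shRenilla column, a log2 ratio of -0.64. In CEM it stood at 52.2 CPM in shJMJD3 cells against 206 CPM in shRenilla cells, a log2 ratio of -1.71. KDM6A had log2 ratios of -1.13 in CUTLL1 and -1.36 in CEM for shUTX against shRenilla. For shJMJD3 against shRenilla KDM6A was at 0.00 in CUTLL1 and -0.38 (-0.42 to -0.33) in CEM. For shUTX against shRenilla KDM6B was at 0.42 (0.35 to 0.49) in CUTLL1 and -0.02 in CEM.

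Type I interferons bind the receptor IFNAR1 with IFNAR2, whose kinases JAK1 and TYK2 activate STAT2. With IRF9 it forms part of the factor ISGF3, which binds interferon-stimulated response elements (ISREs) in promoters and switches on genes that block viruses at entry, translation, replication or release. Several of those genes encode RNA sensors or factors of the pathway itself, and many are also transcribed at a basal level in cells that receive no interferon.

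The promoters of 6 members are shown because they carry the ISRE core and belong to the members that set the lines and hairpins apart. BST2, EPSTI1 and IFITM3 were at least 1.5-fold higher in both lines in a comparison of hairpins, and MX1, IFIT3 and PARP14 were added after their values were seen, as members much higher with shJMJD3 in CUTLL1. Each window runs from 250 bases before to 50 bases after the gene start in RefSeq on GRCh38.p14, on the strand of the gene. Capitals mark matches to GAAANNGAA on either strand, the ISRE core searched, and overlapping matches merge into 1 run. The windows lie at chr19:17405581-17405880 on the minus strand for BST2, chr13:42992192-42992491 on the minus strand for EPSTI1 and chr11:320811-321110 on the minus strand for IFITM3. Those of MX1, IFIT3 and PARP14 lie at chr21:41420308-41420607, chr10:89327747-89328046 and chr3:122680589-122680888, all on the plus strand.
BST2 promoter: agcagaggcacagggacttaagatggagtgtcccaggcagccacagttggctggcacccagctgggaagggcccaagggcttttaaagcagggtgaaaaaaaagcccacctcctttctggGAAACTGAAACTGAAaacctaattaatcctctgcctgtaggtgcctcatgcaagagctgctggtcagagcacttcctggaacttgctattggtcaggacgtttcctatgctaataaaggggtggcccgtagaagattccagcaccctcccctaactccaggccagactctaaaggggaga
EPSTI1 promoter: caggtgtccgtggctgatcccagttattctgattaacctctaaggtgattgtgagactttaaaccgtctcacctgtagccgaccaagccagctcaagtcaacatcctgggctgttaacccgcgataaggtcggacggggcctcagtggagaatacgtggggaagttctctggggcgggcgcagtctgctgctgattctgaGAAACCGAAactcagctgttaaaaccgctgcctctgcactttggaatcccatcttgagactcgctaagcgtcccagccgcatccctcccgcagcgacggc
IFITM3 promoter: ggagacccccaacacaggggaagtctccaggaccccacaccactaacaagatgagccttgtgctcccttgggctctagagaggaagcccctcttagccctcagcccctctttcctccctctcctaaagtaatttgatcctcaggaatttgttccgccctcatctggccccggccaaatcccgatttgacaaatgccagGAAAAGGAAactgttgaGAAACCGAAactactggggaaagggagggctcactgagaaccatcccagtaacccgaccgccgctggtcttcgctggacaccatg
MX1 promoter: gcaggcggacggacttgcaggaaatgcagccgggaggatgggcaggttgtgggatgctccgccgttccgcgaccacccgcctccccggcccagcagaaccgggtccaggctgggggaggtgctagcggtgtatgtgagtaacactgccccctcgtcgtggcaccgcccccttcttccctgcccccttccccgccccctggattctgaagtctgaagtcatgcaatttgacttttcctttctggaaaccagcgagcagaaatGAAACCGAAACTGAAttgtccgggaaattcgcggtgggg
IFIT3 promoter: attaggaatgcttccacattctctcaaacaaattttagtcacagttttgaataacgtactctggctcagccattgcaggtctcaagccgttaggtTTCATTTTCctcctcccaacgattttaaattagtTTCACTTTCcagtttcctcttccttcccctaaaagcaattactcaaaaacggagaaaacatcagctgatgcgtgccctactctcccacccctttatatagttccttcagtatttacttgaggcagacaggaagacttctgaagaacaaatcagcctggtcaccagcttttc
PARP14 promoter: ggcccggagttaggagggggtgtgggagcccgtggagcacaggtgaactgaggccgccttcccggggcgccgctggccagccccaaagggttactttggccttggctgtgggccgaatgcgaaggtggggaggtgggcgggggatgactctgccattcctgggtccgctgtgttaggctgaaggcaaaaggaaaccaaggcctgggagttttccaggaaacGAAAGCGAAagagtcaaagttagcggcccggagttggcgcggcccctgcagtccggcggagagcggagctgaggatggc

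A promoter window was found for 35 of the 43 members, and 23 of them held the ISRE core, or 65.7%, beside 2847 of all 35116 windows, or 8.11%. BST2 and MX1 each held overlapping ISRE matches, IFITM3 and IFIT3 held separate ones, and in IFIT3 the matches were on the opposite strand. CMPK2 and PARP9 had no match in their windows. In CEM the 23 members with the core had a median log2 ratio of -0.32 for shJMJD3 against shRenilla, and the 12 without it had -0.45. By 1.5-fold, 6 were higher and 9 lower among those with the core, and 2 higher and 4 lower among those without. Of all genes counted there, 21.0% were higher and 25.3% lower. In CUTLL1 the medians of the same comparison were 0.06 over 21 members with the core and 0.16 over 12 without it.

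Set against shRenilla, shJMJD3 cells had both higher and lower members, and not the same ones in each line. With 1 column per hairpin and line, the difference between the lines was not tested. In CUTLL1 a short list of antiviral effectors was much higher, led by BST2, MX1, IFIT3 and PARP14, while most members stayed within 1.5-fold. In CEM the IFIT and MX genes, IRF7, the sensor DDX58 and the cell death factor XAF1 were lower, while BST2, the 3 IFITM genes, EPSTI1 and CMPK2 were higher. With at least 50 counts in either column, 40 members could be counted in CUTLL1, and 7 of these were at least 1.5-fold higher and 2 lower. Among all 19772 genes with that many counts, 8.37% were higher and 7.52% lower. In CEM all 43 members could be counted, and 9 were higher and 17 lower, where 21.0% of all 16998 genes were higher and 25.3% lower. The median log2 ratio of the members was 0.12 in CUTLL1, beside -0.01 over all genes, and -0.41 in CEM, beside -0.06 over all genes. Fewer cells of a kind and less RNA per cell cannot be told apart in these bulk samples.

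When columns were scaled by their totals alone, every ratio of this comparison shifted by -0.14 in CUTLL1 and -0.27 in CEM. The CUTLL1 median then became -0.02, with 7 members higher and 5 lower, and the CEM median -0.68, with 7 higher and 25 lower. All genes then stood at 6.07% higher and 11.8% lower in CUTLL1, and at 13.9% higher and 36.5% lower in CEM. With RLE size factors, another scaling, the CEM median was -0.37, with 9 members higher and 14 lower, beside 22.3% and 24.0% of all genes. TMM without small and mitochondrial RNA gave 9 higher and 16 lower in CEM, beside 21.3% and 24.9%. Both left CUTLL1 at 7 higher and 2 lower. Across both lines together, 0 of 24003 genes (0%) and 0 of the 43 members were called by the quasi-likelihood test of edgeR, whose smallest Benjamini-Hochberg adjusted p was 0.8004. At an unadjusted p under 0.05 it had 936 genes, among them EPSTI1, BST2 and CMPK2 as higher and MX2 and ISG15 as lower members, and DESeq2 called 115 genes but no member.

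**Figure D1:**
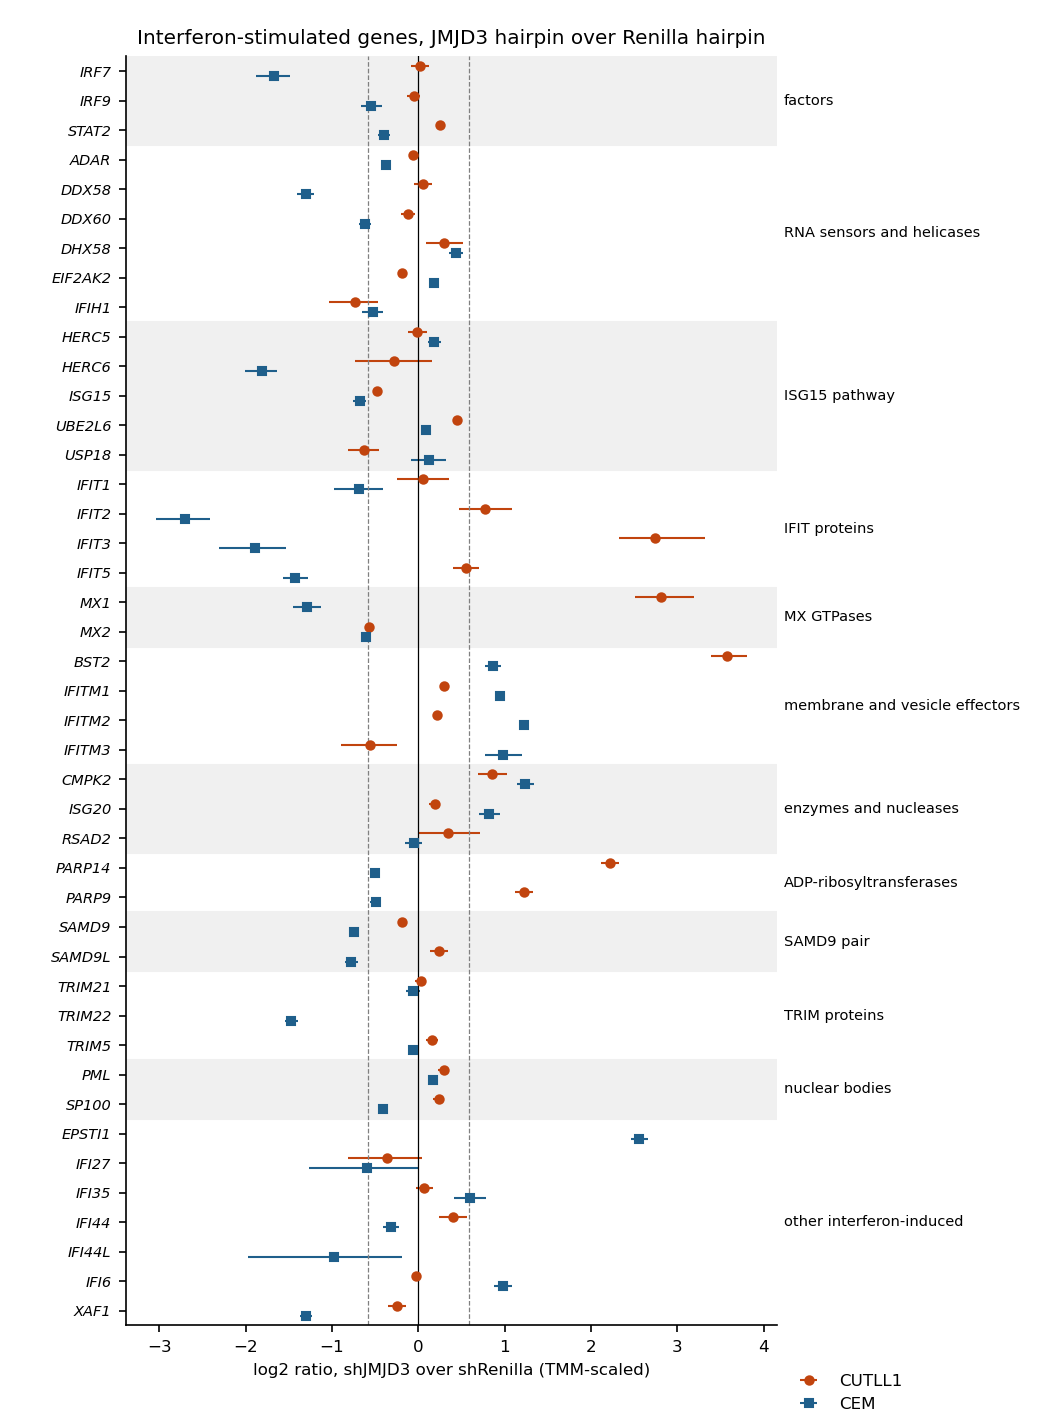
TMM-scaled log2 ratio of shJMJD3 to shRenilla (x axis) for each member (rows, grouped by role) in CUTLL1 (circles) and CEM (squares), with 95% binomial intervals for counting error, drawn where either column has at least 50 counts. Dashed lines mark 1.5-fold; BST2 is at 3.58 in CUTLL1 and 0.86 in CEM, while MX1 is at 2.81 in CUTLL1 and -1.28 in CEM.

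Among the 3 transcription factors IRF7, IRF9 and STAT2, IRF7, which amplifies interferon production, had the ratio farthest from 0, in CEM. It stood at 3.47 CPM with shJMJD3, 14.9 with shUTX and 13.4 with shRenilla in CEM, a log2 ratio of -1.67 (-1.88 to -1.48) for shJMJD3 against shRenilla. In CUTLL1 it stood at 7.52 CPM with shJMJD3, 10.2 with shUTX, and 8.16 and 9.47 in the larger and smaller shRenilla columns, a log2 ratio of 0.02 (-0.08 to 0.12). The ISGF3 subunits IRF9 and STAT2 stayed within 1.5-fold. IRF9 had log2 ratios of -0.05 in CUTLL1 and -0.54 in CEM, and STAT2 had 0.26 and -0.40 in the same lines.

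The RNA sensors and helicases were mostly level in CUTLL1 and mixed in CEM. DDX58, the sensor RIG-I, stood at 15.5 CPM with shJMJD3, 45.8 with shUTX and 46.1 with shRenilla in CEM, a log2 ratio of -1.30 (-1.40 to -1.21) for shJMJD3 against shRenilla. Its CUTLL1 levels were 6.90 CPM with shJMJD3, 10.2 with shUTX, and 7.31 and 9.15 in the larger and smaller shRenilla columns, a log2 ratio of 0.06. IFIH1, the sensor MDA5, was at least 1.5-fold lower with shJMJD3 in CUTLL1 and slightly less so in CEM. It stood at 0.815 CPM with shJMJD3, 1.40 with shUTX, and 1.504 and 1.23 in the larger and smaller shRenilla columns of CUTLL1, a log2 ratio of -0.74 (-1.03 to -0.46). In CEM it stood at 10.9 CPM with shJMJD3, 21.0 with shUTX and 19.0 with shRenilla, a log2 ratio of -0.53. The CUTLL1 difference was -0.23 when set against the smaller column, so its size rests on which control counts are used. DHX58, the regulator LGP2, stood at 0.30 in CUTLL1 and 0.44 in CEM, and EIF2AK2, the translation-blocking kinase PKR, at -0.18 and 0.19. ADAR, the RNA-editing enzyme, stood between 234.8 and 582.8 CPM in the columns, and its ratios were -0.05 and -0.38. DDX60, a helicase linked to RIG-I signalling, stood at -0.12 in CUTLL1 and -0.61 in CEM.

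The ISG15 pathway attaches the ubiquitin-like protein ISG15 to other proteins through the conjugating enzyme UBE2L6 and the ligase HERC5, and USP18 removes it. ISG15 stood at 66.8 CPM with shJMJD3, 98.0 with shUTX, and 102.8 and 124.6 in the larger and smaller shRenilla columns of CUTLL1. Levels in CEM were 27.6 CPM with shJMJD3, 54.4 with shUTX and 53.3 with shRenilla. Its log2 ratio to shRenilla was -0.48 in CUTLL1 and -0.68 in CEM, and the value with shJMJD3 was the lowest of its line in both. HERC6, a relative of HERC5, differed in CEM, where it stood at 3.87 CPM with shJMJD3, 21.8 with shUTX and 16.5 with shRenilla, a log2 ratio of -1.81 (-2.01 to -1.63). In CUTLL1 it had few counts, 66 with shJMJD3, 55 with shUTX, and 131 and 56 in the larger and smaller shRenilla columns, and its interval of -0.73 to 0.16 included 0. HERC5 itself had log2 ratios of -0.01 in CUTLL1 and 0.19 in CEM, unlike HERC6, its neighbour on chromosome 4. Its levels were 5.91 CPM with shJMJD3, 12.1 with shUTX, and 6.57 and 9.41 in the larger and smaller shRenilla columns of CUTLL1, and 37.4, 40.6 and 39.6 CPM with shJMJD3, shUTX and shRenilla in CEM. UBE2L6 was at 0.45 and 0.09 in CUTLL1 and CEM.

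USP18 shows how the control counts can set a direction in CUTLL1. It had 353 counts with shJMJD3, or 2.03 CPM, and 176 with shUTX, or 1.73 CPM, against 3.46 and 1.75 CPM in the larger and smaller shRenilla columns. Its log2 ratio for shJMJD3 was -0.63 against the larger column and 0.57 against the smaller. In CEM it stood at 4.51 CPM with shJMJD3, 5.75 with shUTX and 5.00 with shRenilla. Its CEM ratio of 0.12 had an interval of -0.08 to 0.33 that included 0.

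The IFIT proteins, which bind viral RNA and block its translation, gave the widest gap between lines, in IFIT3, and that gap was not tested. IFIT3 had 185 counts with shJMJD3 in CUTLL1 and 18 with shUTX, against 43 and 40 in the larger and smaller shRenilla columns, or 1.06, 0.177, 0.167 and 0.277 CPM. Its levels in CEM were 0.911 CPM with shJMJD3, 2.06 with shUTX and 4.13 with shRenilla. The log2 ratio of shJMJD3 to shRenilla was 2.74 (2.33 to 3.33) in CUTLL1 and -1.89 (-2.31 to -1.53) in CEM, so IFIT3 was high with the JMJD3 hairpin in the line where it is scarce and low in the line where it is more abundant. IFIT2 had 180 counts with shJMJD3 and 108 with shUTX in CUTLL1, against 171 and 153 in the larger and smaller shRenilla columns, or 1.03, 1.06, 0.663 and 1.06 CPM. In CEM it stood at 1.31 CPM with shJMJD3, 7.28 with shUTX and 10.4 with shRenilla. Its log2 ratio was -2.70 (-3.04 to -2.41) in CEM, the lowest of all members there, and 0.77 (0.47 to 1.09) in CUTLL1, which became 0.32 against the smaller column. IFIT5 was at 0.55 in CUTLL1 and -1.42 in CEM, and its CEM levels were 6.76 CPM with shJMJD3, 19.4 with shUTX and 21.9 with shRenilla. IFIT1 had few counts in every column, between 145 and 418 counts outside the remainder. It stood at 0.866 CPM with shJMJD3, 2.16 with shUTX, and 0.919 and 1.13 in the larger and smaller shRenilla columns of CUTLL1, and at 2.06, 2.53 and 4.01 CPM with shJMJD3, shUTX and shRenilla in CEM. For shJMJD3 against shRenilla its ratio was 0.06 in CUTLL1 and -0.68 in CEM. All 4 IFIT genes were thus at least 1.5-fold lower in CEM under TMM and column-total scaling, and reads of these related neighbours on chromosome 10 may be shared by the counting.

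The MX genes encode dynamin-like GTPases that trap viral components. MX1 stood at 2.25 CPM with shJMJD3, 0.462 with shUTX, and 0.345 and 0.492 in the larger and smaller shRenilla columns of CUTLL1, or 392, 47, 89 and 71 counts. The CEM columns held 5.46 CPM with shJMJD3, 18.3 with shUTX and 16.1 with shRenilla. Its log2 ratio of shJMJD3 to shRenilla was 2.81 (2.51 to 3.19) in CUTLL1 and -1.28 (-1.45 to -1.12) in CEM, and the shJMJD3 value lay apart from the other columns in each line. MX2, next to MX1 on chromosome 21, was lower with shJMJD3 in both lines. It stood at 62.4 CPM with shJMJD3, 122.1 with shUTX, and 102.3 and 131.8 in the larger and smaller shRenilla columns of CUTLL1, and at 47.4, 93.2 and 86.7 CPM with shJMJD3, shUTX and shRenilla in CEM. Its ratios to shRenilla were -0.57 in CUTLL1 and -0.60 in CEM, and the shJMJD3 value was the lowest in both lines. The CUTLL1 ratio was -0.72 against the smaller column but only -0.13 against the remainder, where MX2 stood at 64.7 CPM. Its size in CUTLL1 thus rests on which control counts are used.

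Among the membrane effectors, BST2 (tetherin), which holds budding virus at the cell surface, was higher with shJMJD3 in both lines. It had 1550 counts with shJMJD3 and 110 with shUTX in CUTLL1, against 209 and 205 in the larger and smaller shRenilla columns, or 8.89, 1.08, 0.810 and 1.42 CPM. In CEM it stood at 27.2 CPM with shJMJD3, 16.7 with shUTX and 18.0 with shRenilla. The log2 ratio to shRenilla was 3.58 (3.39 to 3.81) in CUTLL1, the highest of all members counted there, and 0.86 (0.77 to 0.96) in CEM. By edgeR's quasi-likelihood test across both lines its log2 ratio was 2.40 (standard error 0.766), with an unadjusted p of 0.0266 and an adjusted p of 0.8004. The IFITM proteins block viral entry at endosomes, and all 3 were higher with shJMJD3 in CEM. IFITM2 stood at 391.3 CPM with shJMJD3, 234.7 with shUTX and 202.5 with shRenilla in CEM, a log2 ratio of 1.22 (1.20 to 1.25). In CUTLL1 it stood at 44.3 CPM with shJMJD3, 40.1 with shUTX, and 42.0 and 40.7 in the larger and smaller shRenilla columns, a ratio of 0.22. IFITM1 was at 0.30 in CUTLL1 and 0.95 in CEM, with levels of 519.4 CPM with shJMJD3, 345.8 with shUTX and 324.2 with shRenilla in CEM. IFITM3 had the fewest counts of the 3. It stood at 5.19 CPM with shJMJD3, 3.46 with shUTX and 3.16 with shRenilla in CEM, a ratio of 0.98. In CUTLL1 it had 115 counts with shJMJD3 and 29 with shUTX, against 278 and 42 in the larger and smaller shRenilla columns, so its ratio was -0.56 against the larger and 1.497 against the smaller. These 3 neighbours on chromosome 11 are near-identical in parts, and the sources used here do not say how reads were divided among them.

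CMPK2, a mitochondrial nucleotide kinase, was the other member higher with shJMJD3 in both lines. It stood at 3.47 CPM with shJMJD3, 3.20 with shUTX, and 2.10 and 2.85 in the larger and smaller shRenilla columns of CUTLL1, a ratio of 0.86 (0.69 to 1.03). Levels in CEM were 29.8 CPM with shJMJD3, 13.3 with shUTX and 15.2 with shRenilla, a ratio of 1.24 (1.15 to 1.34). Over all 15882 genes that could be counted in both lines, 2.41% were higher in both, beside these 2 of 40 members. RSAD2 (viperin), which lies next to CMPK2 on chromosome 2, was within 1.5-fold, at 0.35 in CUTLL1 and -0.05 in CEM. Its levels were 0.666 CPM with shJMJD3, 0.874 with shUTX, and 0.574 and 0.769 in the larger and smaller shRenilla columns of CUTLL1, and 19.0, 10.7 and 23.8 CPM with shJMJD3, shUTX and shRenilla in CEM. ISG20, an exonuclease of RNA, was at 0.19 in CUTLL1 and 0.82 in CEM. In CUTLL1 it was at -0.24 against the smaller column and 1.81 against the remainder, so its direction rests on which control counts are used. Its levels were 15.7 CPM with shJMJD3, 10.5 with shUTX and 10.7 with shRenilla in CEM, and 19.2, 37.2, 18.6 and 29.1 CPM with shJMJD3, with shUTX and in the larger and smaller shRenilla columns in CUTLL1.

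The ADP-ribosyltransferases PARP14 and PARP9 were higher with shJMJD3 in CUTLL1. PARP14 stood at 16.1 CPM with shJMJD3, 4.72 with shUTX, and 3.79 and 5.01 in the larger and smaller shRenilla columns of CUTLL1, and at 102.2, 178.0 and 174.1 CPM with shJMJD3, shUTX and shRenilla in CEM. Its ratio to shRenilla was 2.22 (2.12 to 2.33) in CUTLL1 and -0.50 in CEM. PARP9 stood at 11.5 CPM with shJMJD3, 5.72 with shUTX, and 5.43 and 6.79 in the larger and smaller shRenilla columns of CUTLL1, a ratio of 1.22 (1.13 to 1.32). In CEM it stood at 40.2 CPM with shJMJD3, 66.6 with shUTX and 68.4 with shRenilla, a ratio of -0.49. Both genes lie on chromosome 3 with DTX3L, the ubiquitin ligase partner of PARP9, and PARP15 between them. In CUTLL1 DTX3L had a ratio of 1.21 (3943 counts with shJMJD3 against 2783 in the larger column) and PARP15 one of 3.20 (97 counts against 15), while the genes on either side of the 4, KPNA1 and HSPBAP1, each had -0.26. In CEM DTX3L stood at -0.19 and PARP15 at -1.71, so the 4 neighbours were all higher in CUTLL1 and all below 0 in CEM. Values below 0 in CEM were not limited to the 4. There HSPBAP1 had -1.24, WDR5B -0.72 and SLC49A4, listed as DIRC2, -0.69, while KPNA1 had 0.26. Farther out, FAM162A was at least 1.5-fold higher with shJMJD3 in both lines, with ratios of 0.59 (CUTLL1) and 3.33 (CEM). The nearest counted neighbours of BST2 were GTPBP3 at -0.28 and MVB12A, listed as FAM125A, at 0.07 in CUTLL1. These neighbours were looked up after the values of BST2 and PARP14 were seen.

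EPSTI1, named for epithelial stromal interaction, had the highest ratio in CEM. It stood at 49.0 CPM with shJMJD3, 22.1 with shUTX and 10.02 with shRenilla in CEM, a ratio of 2.56 (2.46 to 2.66) for shJMJD3. In CUTLL1 it had 44 counts with shJMJD3, 54 with shUTX, and 33 in both the larger and the smaller shRenilla column, too few to count for shJMJD3. IFI6, a mitochondrial anti-apoptotic protein, stood at 23.8 CPM with shJMJD3, 15.6 with shUTX and 14.6 with shRenilla in CEM, a ratio of 0.98. In CUTLL1 it stood at 45.7 CPM with shJMJD3, 48.9 with shUTX, and 51.1 and 54.9 in the larger and smaller shRenilla columns, a ratio of -0.02. XAF1, which counters the apoptosis inhibitor XIAP, was lower with shJMJD3 in CEM. Its levels there were 27.9 CPM with shJMJD3, 91.3 with shUTX and 83.2 with shRenilla, a ratio of -1.30 (-1.37 to -1.23), and in CUTLL1 its ratio was -0.24. IFI35 had ratios of 0.07 in CUTLL1 and 0.60 in CEM, IFI44 had 0.40 and -0.32, and IFI27 had -0.37 and -0.59 with intervals that included 0. IFI27 had 69 counts with shJMJD3, 45 with shUTX, and 146 and 91 in the larger and smaller shRenilla columns of CUTLL1, and 30, 41 and 82 counts with shJMJD3, shUTX and shRenilla in CEM. IFI44L was at 55 counts or fewer in every column. It had 23 counts with shJMJD3, 0 with shUTX and 4 in each shRenilla column of CUTLL1, and 15 counts with shJMJD3, 11 with shUTX and 55 with shRenilla in CEM, a ratio of -0.97 (-1.97 to -0.19).

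SAMD9 and SAMD9L, neighbouring growth-restraining genes on chromosome 7, were both lower in CEM, at -0.74 and -0.77, and within 1.5-fold in CUTLL1, at -0.19 and 0.24. Of the TRIM ubiquitin ligases, TRIM22 was lower with shJMJD3 in CEM, at 27.0 CPM with shJMJD3, 71.5 with shUTX and 90.1 with shRenilla, a ratio of -1.47 (-1.54 to -1.40). TRIM21, an antibody receptor in the cytosol, was at 0.03 in CUTLL1 and -0.06 in CEM, and TRIM5, which targets retroviral capsids, at 0.16 and -0.05. The nuclear body proteins PML and SP100 stayed within 1.5-fold: PML was at 0.30 in CUTLL1 and 0.17 in CEM, and SP100 at 0.24 and -0.41.

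**Figure D2:**
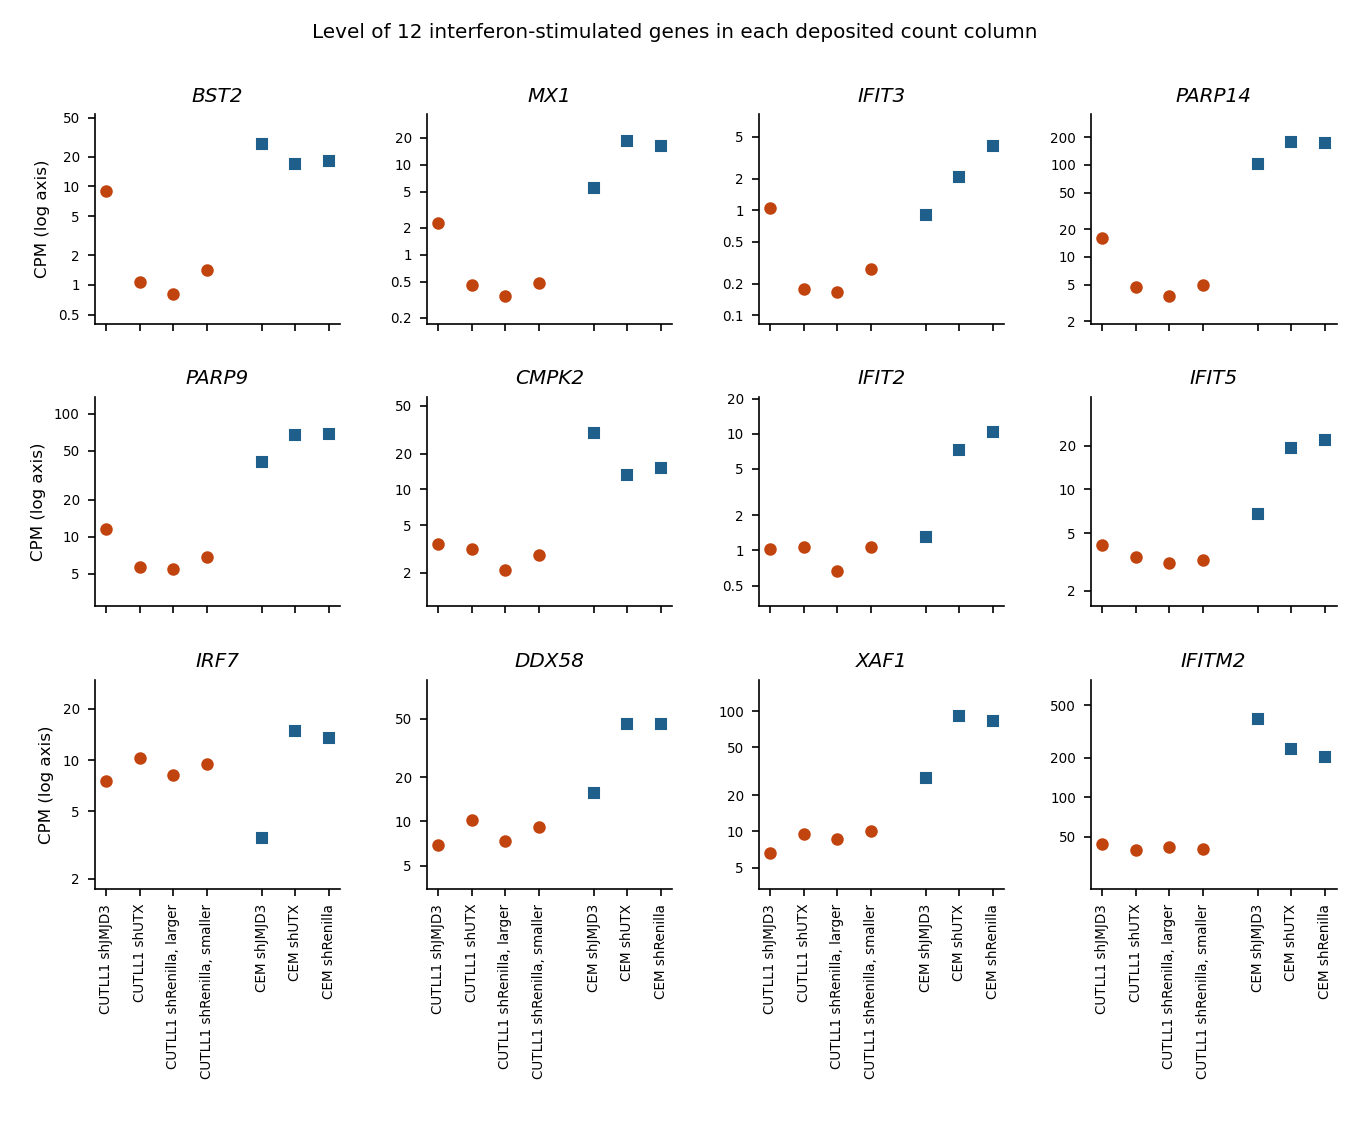
Level of 12 members (panels) in CPM of the column total, on log axes that differ between panels, in each deposited column (x axis; CUTLL1 circles, CEM squares; 1 pooled column each, so no error bars). BST2, MX1, IFIT3 and PARP14 stand higher with shJMJD3 than in the other CUTLL1 columns, and IFIT2, IFIT5, IRF7, DDX58 and XAF1 stand lower with shJMJD3 than in the other CEM columns.

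The ratios of CUTLL1 shJMJD3 depended on the part of the control for some members. Within the control itself, BST2 had 4 counts in the remainder (0.0352 CPM) against 205 in the smaller column (1.42 CPM), and 5 members were higher by 1.5-fold and 10 lower in the remainder than in the smaller column, of 39 counted, where 21.96% of all genes were higher and 18.4% lower. The log2 ratio of the remainder to the smaller column was -4.39 for BST2, -2.40 for IFIT3 and -1.05 for MX1, but 3.29 for IFITM3 and 2.20 for USP18. Set against the smaller column, shJMJD3 had a log2 ratio of 3.00 for BST2, 2.52 for MX1, 2.24 for IFIT3, 2.04 for PARP14, 1.12 for PARP9 and 0.64 for CMPK2. These 6 thus stayed at least 1.5-fold higher, and IFIT2 at 0.32 did not. The counts of the smaller column are part of those of the larger, so this is not an independent check. Against the remainder the same ratios were 7.44 for BST2, 3.64 for MX1, 2.76 for PARP14, 1.56 for PARP9, 1.5 for CMPK2 and 2.53 for IFIT2, while IFIT3 had only 3 counts there. In all, 9 members were higher and 1 lower against the smaller column, where 19.0% of all genes were higher and 5.00% lower, and 14 were higher and 4 lower against the remainder, where 21.2% were higher and 18.1% lower. The shares of small RNA given above differ between these columns as well. Leaving small and mitochondrial RNA out of the scaling kept the counts against the larger column at 7 higher and 2 lower, and any further part of RNA selection in these ratios was not tested.

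**Figure D3:**
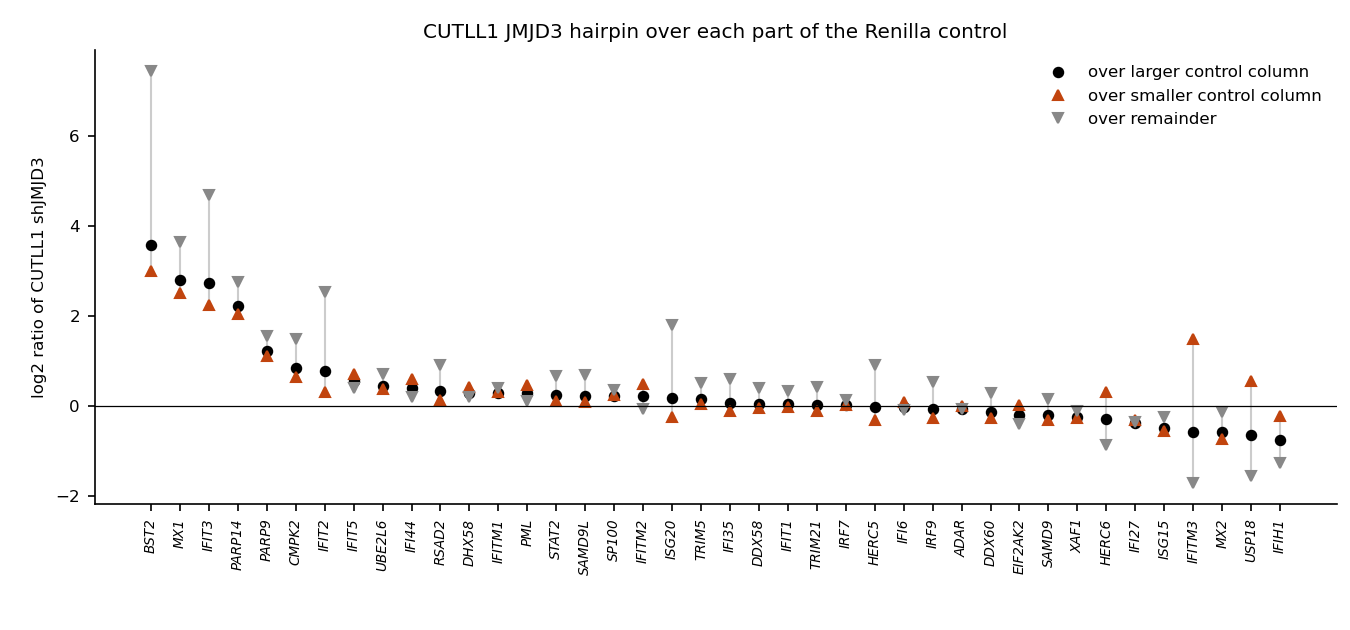
TMM-scaled log2 ratio (y axis) of CUTLL1 shJMJD3 to the larger control column (circles), the smaller control column (upward triangles) and the remainder (downward triangles) for the 40 members counted against the larger column (x axis, in order of that ratio), with a line joining the 3 values of a member. BST2 lies between 3.00 and 7.44, while USP18, IFITM3, ISG20 and HERC6 are among several members that lie on both sides of 0.

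The UTX hairpin, set against shRenilla, left nearly all members within 1.5-fold in both lines. EPSTI1 was the member higher in both. It had 54 counts with shUTX in CUTLL1 against 33 in the smaller shRenilla column, a log2 ratio of 1.19 (0.60 to 1.92), and in CEM 1567 counts against 1044, a ratio of 1.18 (1.07 to 1.29). In CUTLL1 IFIT1 was also higher, at 2.16 CPM with shUTX against 1.13 CPM with shRenilla, a ratio of 0.96 (0.67 to 1.27), and no member was lower. In CEM 4 members were lower. IFI44L had 11 counts against 55, a ratio of -1.59 (-2.81 to -0.78), and RSAD2 stood at 10.7 CPM with shUTX against 23.8 CPM with shRenilla, a ratio of -1.11 (-1.23 to -0.99). IFIT3 was at -0.96 (-1.25 to -0.69) and IFIT1 at -0.63 (-0.89 to -0.37), so IFIT1 stood on opposite sides of its controls in the lines.

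Of the 39 members counted in CUTLL1, 2 were higher and 0 lower with shUTX, where 3.38% of all genes were higher and 2.35% lower. Of the 43 counted in CEM, 1 was higher and 4 lower, where 3.33% were higher and 4.02% lower. The members' medians were 0.01 in CUTLL1 and 0.04 in CEM, beside -0.02 and 0.00 over all genes, and became -0.02 and 0.01 with column totals. Other members named at the ends of this order were HERC6 at 0.49 in CUTLL1 and 0.44 in CEM, HERC5 at 0.39 and 0.07, and USP18 at 0.01 and 0.24. BST2 was at -0.36 in CUTLL1 and -0.07 in CEM, ISG15 at -0.31 and 0.07, PARP9 at -0.22 and 0.00, and IFI27, with 45 counts against 91 in CUTLL1 and 41 against 82 in CEM, at -0.47 and -0.39. Across both lines edgeR's quasi-likelihood test called 0 of 23112 genes (0%) and no member, with 39 genes and no member at an unadjusted p under 0.05, and DESeq2 called 1 gene, which was no member. Set against the larger control column in CUTLL1, 4 of 40 members were higher and 2 lower with shUTX, where 6.26% of all genes were higher and 18.3% lower.

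**Figure D4:**
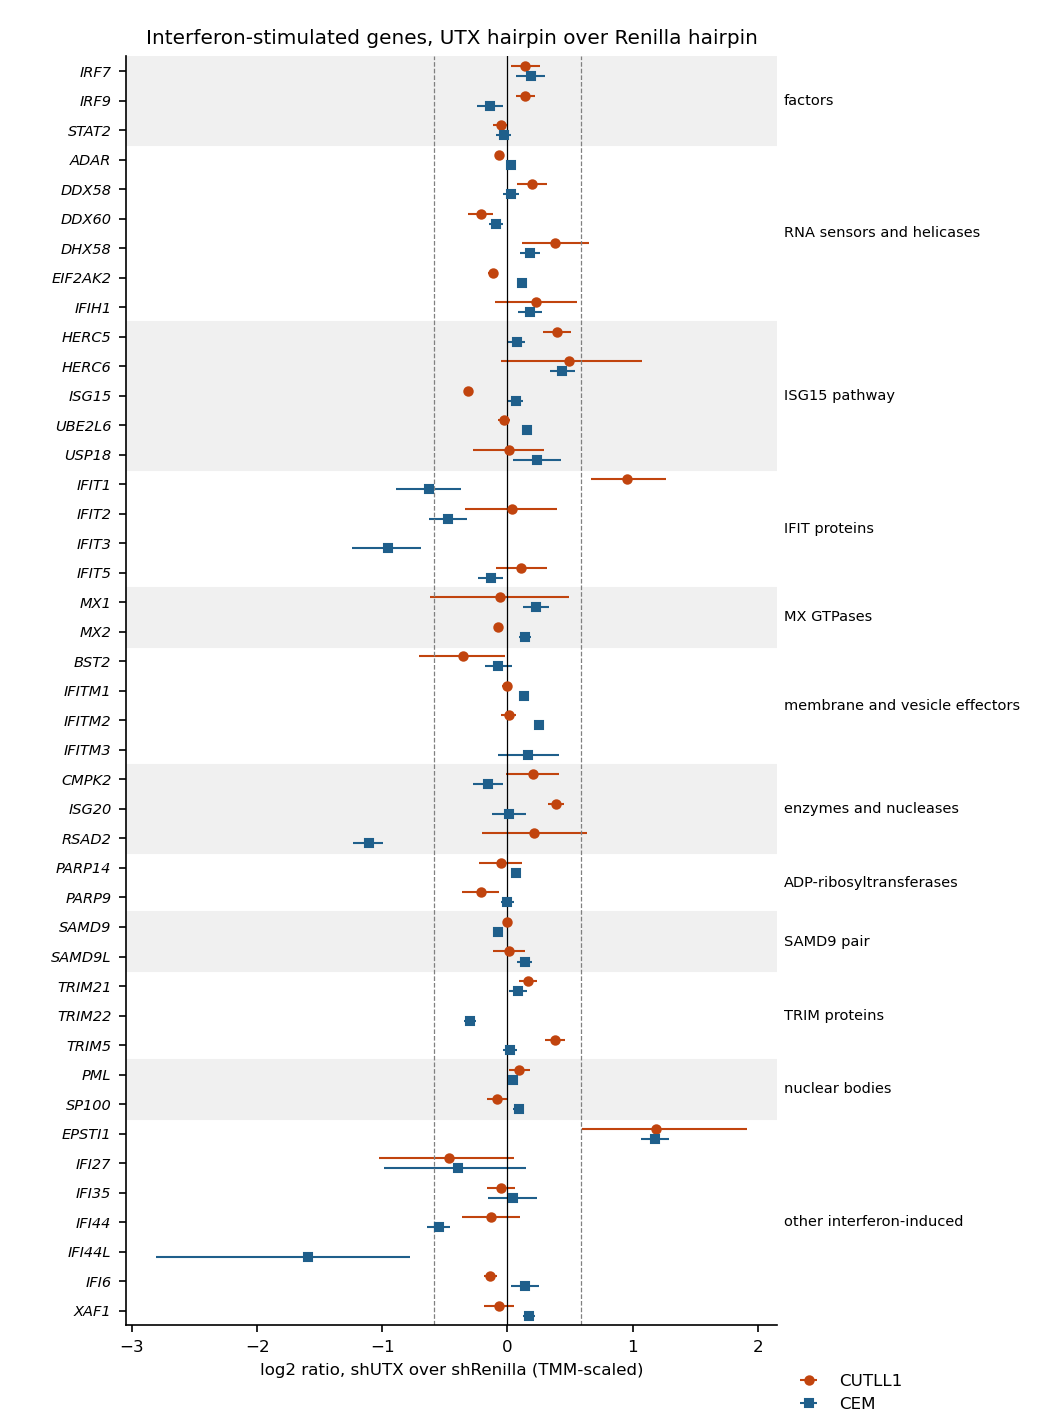
TMM-scaled log2 ratio of shUTX to shRenilla (x axis) for each member (rows, grouped by role) in CUTLL1 (circles) and CEM (squares), with 95% binomial intervals for counting error and dashed lines at 1.5-fold. Most members lie between the dashed lines; EPSTI1 is at 1.19 in CUTLL1 and 1.18 in CEM.

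The comparison of shJMJD3 with shUTX contrasts both demethylases and shares its shJMJD3 columns with the comparison above. BST2 was higher with shJMJD3 in both lines, by a log2 ratio of 3.35 (3.09 to 3.67) in CUTLL1 and 0.94 (0.83 to 1.04) in CEM. IFITM3 was also higher in both, at 1.49 (0.95 to 2.19) and 0.82 (0.58 to 1.06), and MX2 was lower in both, at -0.64 (-0.67 to -0.60) and -0.74 (-0.80 to -0.68). In CUTLL1 the next highest were IFIT3 at 2.81, MX1 at 2.57, PARP14 at 2.10 and PARP9 at 1.34, and the lowest were IFIT1 at -0.98, EPSTI1 at -0.71 and HERC5 at -0.70. In CEM the highest were CMPK2 at 1.40, EPSTI1 at 1.38, RSAD2 at 1.06 and IFITM2 at 0.97, and the lowest were HERC6 at -2.25, IFIT2 at -2.22, IRF7 at -1.85 and MX1 at -1.51. Thus IFIT3, IFIT5 and MX1 were higher in CUTLL1 and lower in CEM, and EPSTI1 and ISG20 the reverse. Over the 15113 genes counted in both lines, 3.90% were higher in both and 2.40% lower in both, 2.69% were higher in CUTLL1 and lower in CEM, and 1.32% the reverse.

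Of 41 members counted in CUTLL1, 8 were higher and 5 lower with shJMJD3 than with shUTX, where 19.4% of all genes were higher and 6.20% lower. In CEM 9 of 41 were higher and 14 lower, where 21.9% were higher and 23.8% lower. With column totals the CUTLL1 counts became 6 higher and 10 lower, beside 15.3% and 21.3% of all genes, and the median was -0.24 beside 0.09 with TMM. The CEM counts became 7 higher and 21 lower, beside 15.2% and 33.3%, and the median was -0.60 beside -0.37 with TMM. Across lines edgeR's quasi-likelihood test called 0 of 24003 genes (0%) and no member, although 1945 genes had an unadjusted p under 0.05, among them BST2 as higher and MX2 and ISG15 as lower members. MX2 had a log2 ratio of -0.76 (standard error 0.172, adjusted edgeR p 0.537), and DESeq2, which called 313 genes, gave it an adjusted p of 0.0131.

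The lines themselves differed in most members. In control cells 30 of the 43 were at least 1.5-fold lower in CUTLL1 than in CEM and 5 were higher, where 35.3% of all 20648 genes were higher and 30.0% lower, and the members' median was -1.94, beside 0.07 over all genes. TRIM22 was nearly without counts in CUTLL1, with 4 counts with shJMJD3, 10 with shUTX, and 5 and 3 in the larger and smaller shRenilla columns, against 1897, 5062 and 9391 counts with shJMJD3, shUTX and shRenilla in CEM. EPSTI1 had a log2 ratio of -5.83 (-6.49 to -5.44), PARP14 of -5.17 (-5.26 to -5.08), MX1 of -5.15 (-5.51 to -4.88) and RSAD2 of -5.00 (-5.27 to -4.78). In control cells RSAD2 thus stood at 0.574 CPM in CUTLL1 (larger column) against 23.8 CPM in CEM. Members higher in CUTLL1 were IFI6 at 2.16, ISG15 at 1.30, ISG20 at 1.15, IFI35 at 1.08 and MX2 at 0.59. Those 5 include the conjugated protein ISG15, while its conjugating enzyme UBE2L6 was at -1.24 and its ligase HERC5 at -2.24.

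With the 3 hairpins as replicates of each line, edgeR's quasi-likelihood test called 8835 of 24003 genes, or 36.8%, as different between the lines, 4559 higher and 4276 lower in CUTLL1. It called 30 members, the 5 above as higher and 25 as lower. TRIM22 had a log2 ratio of -10.26 (standard error 0.622, adjusted edgeR p 0.00146), DHX58 of -3.76 (0.227, adjusted p 0.00145) and PML of -2.32 (0.147, adjusted p 0.00164). ISG15 had 1.33 (standard error 0.157, adjusted edgeR p 0.00595) and IFI6 1.78 (0.255, adjusted p 0.00961). The 13 members not called included the factors IRF7, IRF9 and STAT2, the kinase EIF2AK2, and IFIT1, IFIT2, IFIT3 and IFI44L, of which IFI44L had the widest standard error, 1.24. With column totals the members called were 2 higher and 27 lower, where 3501 of all 24003 genes were called higher and 5883 lower. With that scaling the members at least 1.5-fold apart in control cells were 4 higher and 33 lower, where all genes stood at 28.2% and 40.3%.

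**Figure D5:**
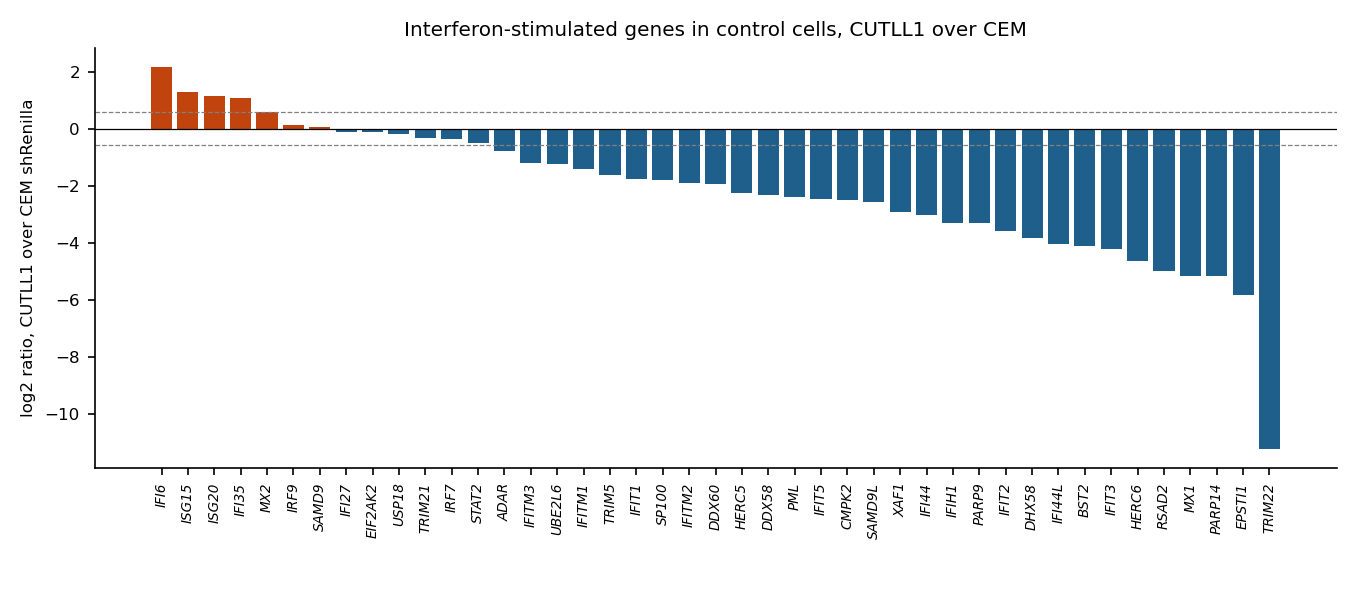
TMM-scaled log2 ratio of CUTLL1 shRenilla (larger column) to CEM shRenilla (y axis) for all 43 members (x axis, in order of the ratio), 1 column per line and so without error bars; dashed lines mark 1.5-fold. IFI6 is highest at 2.16 and TRIM22, which has 5 counts in CUTLL1, lowest at -11.22.

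The rest of the interferon pathway was read from a list of 49 genes found in the tables. The 21 interferon genes were at most 0.196 CPM in any column, a level reached by IFNW1 in CUTLL1 shUTX, and IFNB1 was at most 0.163 CPM, in CEM shRenilla. For shJMJD3 against shRenilla 4 of 25 counted pathway genes were higher and 0 lower in CUTLL1, where 8.37% of all genes were higher and 7.52% lower. In CEM 4 of 26 were higher and 7 lower, where 21.0% of all genes were higher and 25.3% lower. SOCS1, a feedback inhibitor of JAK kinases, had the lowest ratio in CEM, at 3.00 CPM with shJMJD3 against 38.5 CPM with shRenilla, a log2 ratio of -3.40, and -0.23 in CUTLL1. The sensing kinase IKBKE had -1.43, the adaptor MAVS -1.004 and the factor IRF8 -2.05 in CEM, whereas IRF5 had 2.12. The receptor IL28RA, with 0.316 CPM against 0.0543 CPM, had 2.48 in CUTLL1 and 0 counts in CEM. For shUTX against shRenilla 1 of 24 pathway genes was higher in CUTLL1 and 1 of 26 higher and 1 lower in CEM. Over all genes 3.38% were higher in CUTLL1, and 3.33% were higher and 4.02% lower in CEM. Between control cells 3 of 27 pathway genes were higher and 15 lower in CUTLL1 than in CEM, where 35.3% of all genes were higher and 30.0% lower. MB21D1, the DNA sensor cGAS, stood at 0.0930 CPM in CUTLL1 against 19.8 CPM in CEM.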

How the data were processed

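Each of the 6 tables that the authors deposited holds a line and a pair of hairpins, with 1 raw read count column per hairpin; the labels name DEGseq as its source. All counts used here are those deposited counts. The deposited log2 ratios of the authors, the score and the p-value of each gene, made by DEGseq per the file headers, were not used. RNA was selected by poly-A or by ribosomal depletion and read strand-specifically, per the labels' protocols. The sources used here do not say which sample had which selection, or how reads were counted and assigned to strands. CASAVA, TopHat and hg19 come from the submitters' processing notes.

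Ratios within a line were TMM-scaled for each pair of columns with a prior count of 2, counted at 50 or more counts in either column, and have no test. Across lines, edgeR 4.0.16 (R 4.3.3) fitted a quasi-likelihood model to 6 columns with filterByExpr and the line as a block (2 residual degrees of freedom), or the hairpin as a block between lines. DESeq2 1.42.0 was an alternative. In the hairpin comparisons lines stand in for replicates, so a p-value reflects the spread between lines, not between cultures. In the test of CUTLL1 against CEM the hairpins stand in for replicates. Its p-values reflect the spread between hairpins, again not between cultures. Column totals of 70280185 to 258014046 counts set the precision. Missing values, found where no count was listed, were read as 0.

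The members and lists were chosen with earlier results of these data known. Levels in every column are given for members at least 1.5-fold apart the same way in CUTLL1 and CEM, and for the 4 highest and 4 lowest of each line and hairpin comparison. From the pathway list, genes 1.5-fold apart in both lines or 2-fold apart in 1 line are named. Promoter windows are RefSeq's on GRCh38.p14, matched by symbol. Since the deposited tables are on hg19, no coordinates of their genes are given.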

Additional observations from a re-analysis of the deposited data

Results flagged for a closer look

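The comparison of shJMJD3 with shRenilla gave 3 members ratios past 1.5-fold in opposite directions in the lines, where 1.73% of the 15882 genes counted in both were higher in CUTLL1 and lower in CEM and 0.560% the reverse. The CUTLL1 log2 ratio less that of CEM was 4.63 for IFIT3, 4.09 for MX1 and 3.47 for IFIT2, whose CUTLL1 ratio was 0.32, within 1.5-fold, against the smaller control column. For shUTX against shRenilla IFIT1 was the member in opposite directions, with a difference of 1.58, where 0.172% of all 15153 genes were higher in CUTLL1 and lower in CEM. For shJMJD3 against shUTX the differences were 4.08 for MX1, 3.73 for IFIT3 and 1.89 for IFIT5, which were higher in CUTLL1 and lower in CEM, and -2.09 for EPSTI1 and -1.43 for ISG20, which were lower in CUTLL1 and higher in CEM, beside 2.69% and 1.32% of all genes. With 1 column per hairpin and line these differences were not tested. The comparisons share their shJMJD3 columns, so the differences of IFIT3 and MX1 in 2 of them are not independent.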

How the results depend on the processing

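No paired analysis was possible because the deposited columns carry no replicate numbers, and for the same reason no replicate could be left out; leaving out a line leaves no residual degrees of freedom. Of the ratios of members recomputed under the alternatives, 1018 stayed within their counting interval, 384 moved and 2 that were past 1.5-fold changed sign (sign changes of smaller ratios are among the others), USP18 in CUTLL1 shJMJD3 at 0.57 against the smaller control column and ISG20 in CUTLL1 against CEM control cells at -0.45 with the remainder. At 2-fold in place of 1.5-fold, 5 members were higher and 0 lower for shJMJD3 against shRenilla in CUTLL1. Of all genes there, 3.68% were higher and 2.33% lower. In CEM 3 members were higher and 9 lower, where 11.3% of all genes were higher and 14.1% lower. At 2-fold, shUTX against shRenilla left 1 member higher (0.657% of all genes) and 0 lower (0.272%) in CUTLL1. In CEM it left 1 higher (0.81%) and 2 lower (1.23%). For shJMJD3 against shUTX, 6 members were higher (14.7%) and 0 lower (1.67%) in CUTLL1. In CEM that comparison had 3 higher (11.55%) and 8 lower (13.0%). With column totals, lower members in CUTLL1 were 5 for shJMJD3 against shRenilla and 10 against shUTX. With the other control column, CUTLL1 shJMJD3 had 1 lower and CUTLL1 shUTX 4 higher and 2 lower. With the remainder, CUTLL1 shJMJD3 had 14 higher and 4 lower, CUTLL1 shUTX 12 higher and 8 lower (21.6% and 24.6% of all genes), and CUTLL1 against CEM 3 higher. At a minimum of 200 counts CUTLL1 shUTX had 1 higher. No share over all genes was computed for this minimum or for the remainder against CEM. Neither count is thus read as a result about the members. DESeq2 called 115 genes for shJMJD3 against shRenilla, 1 for shUTX against shRenilla and 313 for shJMJD3 against shUTX, where edgeR called 0, and the last comparison had 6 calls by edgeR with column totals and 55 without a filter. Of the 30 calls of members between lines, 5 lost significance under an alternative: IFI35 with column totals and without a filter, ISG20 and MX2 with column totals, MX1 without small and mitochondrial RNA, and MX1 and IFIT5 with the other control column. The causes were not tested. Depth limits IFI44L, IFI27, EPSTI1, IFITM3, TRIM22, IFIT3, MX1 and HERC6 in CUTLL1, where a column held few counts. With shUTX, IFIT3 had 18 counts, MX1 47 and HERC6 55.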
